A study of Mus musculus with 8 samples.

Results

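NRF2 (gene Nfe2l2) is the transcription factor that cells use to raise their antioxidant defences. In unstressed cells the adaptor KEAP1 holds NRF2 and passes it to a CUL3 ubiquitin ligase for destruction; electrophiles and peroxides modify KEAP1, and NRF2 then pairs with a small MAF protein and binds antioxidant response elements near its target genes. Those targets make glutathione, reduce glutathione and thioredoxin, supply the NADPH that both reductions consume, and detoxify quinones. The 10 genes described here were chosen by name as targets of this kind, by a rule that uses no measured value but with earlier results of these data known: Gclc, Gclm, Gsr, Txnrd1, Prdx1, Srxn1, G6pdx, Me1, Nqo1 and Osgin1. They are 10 of the 24421 rows of the count table, all were found under these symbols, and all 10 passed the filter on low counts.

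RNA was sequenced from endothelial cells of the brains of C57Bl6 mouse embryos at E14.5 (embryonic day). Of the 8 libraries, 4 came from embryos heterozygous for a Flvcr2 mutation and 4 from Flvcr2 knockout embryos; Flvcr2 encodes a membrane transporter. The mutant allele drives GFP, and cells positive for GFP and for the endothelial surface protein CD31 were sorted, 2000 to 5000 per library. Every library, control or knockout, therefore carries at least 1 mutant allele, and no wild-type group was analysed here. The labels do not tie libraries to embryos, and part of the spread that the p-values rest on may be technical.

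Library totals ran from 9.11 to 35.9 M counts. Transcripts of 10 endothelial markers summed to between 6590 and 11418 CPM in heterozygous and between 8891 and 12249 CPM in knockout libraries. CPM are read counts scaled to a common library size with edgeR's TMM factors. Of the 10, Emcn alone was called, 2.28-fold higher in knockout (edgeR adjusted p = 0.00321). At an unadjusted p under 0.05 (edgeR), 5 were higher and 1 lower. Markers of other cell types were also counted, with lower sums in most knockout libraries. By edgeR, 4.02% of all tested genes were called lower (adjusted p under 0.05). At an unadjusted p under 0.05 (edgeR), 1709 of 13540 were lower. In heterozygous against knockout libraries, 10 neuron markers summed to 270 to 1718 against 86.7 to 255 CPM (6 of 10 called lower, 9 unadjusted). The 8 radial glia markers summed to 148 to 448 against 48.3 to 251 CPM (3 called lower, 3 unadjusted). The 9 pericyte markers summed to 174 to 281 against 23.2 to 178 CPM (2 called lower, 5 unadjusted). The 10 microglia markers summed to 528 to 1528 against 136 to 890 CPM (1 called lower, 8 unadjusted). The 8 erythroid markers summed to 237 to 611 against 19.3 to 52.0 CPM (of 5 tested, 2 called lower, 3 unadjusted). The adult globins Hba-a1 and Hbb-bs had 0 counts in every library. How reads that map to several places were counted is not stated, so these zeros need not mean absent RNA. The 7 fibroblast markers overlapped, at 222 to 417 and 107 to 607 CPM, and 0 were called (edgeR; 1 at an unadjusted p under 0.05). In bulk libraries, fewer cells of a type and less RNA per cell cannot be told apart. The part of these cells in the values below was not tested, other than by the fits with a marker score as a covariate that are given beside the results.

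The antioxidant response element is the sequence that NRF2 recognises, and its core was looked up in their promoters. RefSeq promoter windows of build GRCm38.p6, from 250 bases before to 50 after an annotated start, were at hand for 8 of the 10 genes, not for Gclc and Gsr, in 11 windows. The core TGACNNNGC, searched on both strands, lay in windows of 6 of these 8 genes, against 13.99% of all 27025 genes with a window, and in 6 of the 11 windows, against 12.4% of all 32851. Its full form TGACTCAGC, which also holds the letters of an AP-1 site, lay in 2 of the 11 windows, those of Me1 and Prdx1, and in 0.454% of all windows. The 6 stretches are printed in the direction of the motif, with the motif in capitals.
Me1: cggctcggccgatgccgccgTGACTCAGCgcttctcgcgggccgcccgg
Prdx1: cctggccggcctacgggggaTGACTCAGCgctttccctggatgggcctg
G6pdx: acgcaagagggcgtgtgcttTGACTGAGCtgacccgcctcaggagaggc
Gclm: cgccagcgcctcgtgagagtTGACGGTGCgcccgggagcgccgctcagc
Txnrd1: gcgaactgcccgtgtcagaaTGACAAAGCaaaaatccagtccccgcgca
Srxn1: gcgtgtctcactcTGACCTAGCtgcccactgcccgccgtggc
They lie at chr9:86695892-86695940 (Me1, minus strand), chr4:116685446-116685494 (Prdx1, minus), chrX:74428909-74428957 (G6pdx, plus), chr3:122245403-122245451 (Gclm, minus), chr10:82859094-82859142 (Txnrd1, minus) and chr2:152105532-152105573 (Srxn1, minus). In the gene's direction the motif began 6 bases before the start of Me1, 133 before that of Prdx1, 57 before that of G6pdx, 134 before an internal start of Gclm, 92 before an internal start of Txnrd1 and 28 after that of Srxn1. The Gclm window is set on a start 70 bases inside the RefSeq gene, so the motif lies 64 bases before the gene's own start. The Txnrd1 start with the motif lies 25255 bases inside the gene. Its other windows, among them that at the gene's own start, held no motif. The window of Nqo1 held no such letters, nor did that of Osgin1, which is set on an internal start 11265 bases inside the gene; the outer start of Osgin1 was not searched. A match describes the sequence and does not show that NRF2 binds there in these cells. The members were chosen by name as NRF2 targets, so these shares are not a test of the list.

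The 10 genes did not move together between knockout and heterozygous cells. Osgin1 rose 2.57-fold and was the only member called (edgeR quasi-likelihood test, adjusted p under 0.05 over all 13540 tested genes). Of all tested genes 5.53% were called higher and 4.02% lower. Among the members 1 of 10 was higher and 0 lower (at an unadjusted p under 0.05, 2 were higher and 1 lower; DESeq2 called 2 higher and 1 lower, limma voom 0 and 0). Log2 fold changes were positive for 4 members and negative for 6, with a median of -0.12, against -0.03 over all tested genes. The median size of the log2 change, whatever its sign, was 0.23 for the members and 0.39 over all tested genes. Groups did not overlap for 2 members, Gclc and Me1, which pointed in opposite directions; of all tested genes, groups did not overlap for 17.6%, with 9.7% higher and 7.9% lower in knockout.

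**Figure D1:**
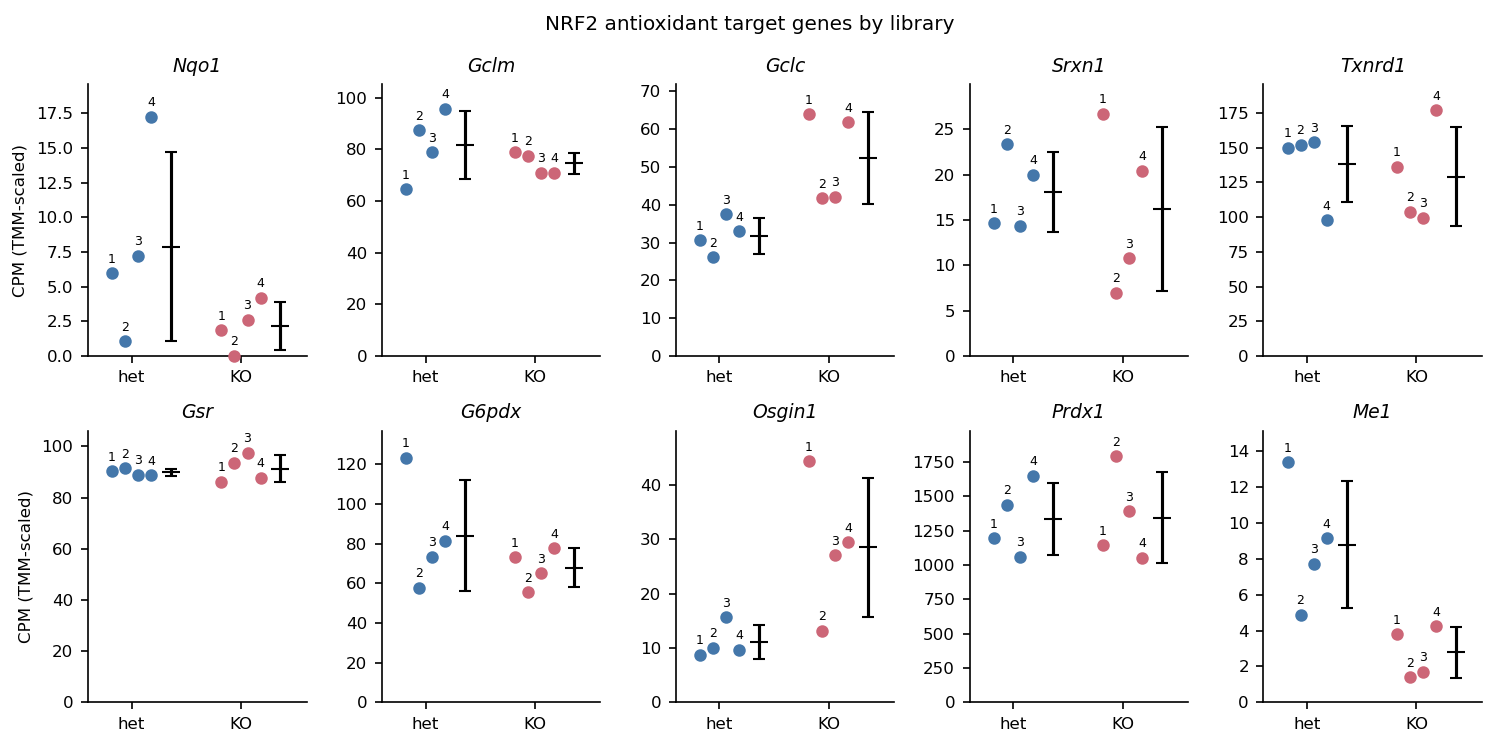
Level of each NRF2 target gene in CPM (y axis, from 0, own scale per gene) in the 4 heterozygous (het, blue) and 4 knockout (KO, red) libraries; numbers are the library numbers and black bars the mean ± SD of 4 libraries. The knockout points lie above all heterozygous points for Gclc and below them for Me1, and 3 of 4 do so for Osgin1, while the other genes overlap more widely.

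Per kilobase of merged GENCODE M21 exons, the members covered a wide range of levels in heterozygous cells. Prdx1 was the most abundant at 439 ± 86.0 CPM per kb (SD, n = 4), and its libraries (348 to 542) lay above those of every other member. Gsr followed at 32.6, G6pdx at 27.3, Txnrd1 at 19.6 and Gclm at 12.99 CPM per kb, each overlapping its neighbour in this order. All libraries of Gclc (mean 8.45) lay below those of Gclm (10.3 to 15.2). Gclc was followed by Srxn1 at 6.41, Nqo1 at 5.07, Osgin1 at 4.14 and Me1 at 2.28 CPM per kb, each again overlapping its neighbour. In knockout cells Gclc averaged 13.9 and Gclm 11.9 CPM per kb, with overlapping ranges (11.1 to 17.0 and 11.3 to 12.5). The labels do not name the annotation used for counting, so the lengths are approximate.

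Glutathione synthesis begins with glutamate-cysteine ligase, a catalytic subunit encoded by Gclc joined to a modifier subunit encoded by Gclm that raises its activity. Gclc (chr9:77754535-77794489, GRCm38) stood at 30.6, 26.1, 37.5 and 33.0 CPM in heterozygous libraries 1 to 4, against 63.9, 41.7, 42.1 and 61.9 CPM in knockout libraries 1 to 4. All 4 knockout libraries lay above all heterozygous ones, with libraries 1 and 4 the highest. The log2 fold change was 0.72 ± 0.20 (SE), and the adjusted p fell just over the threshold at 0.05004 (edgeR; 95% interval 0.27 to 1.17), so Gclc was not called. It was called by DESeq2 (adjusted p = 0.0167), with the filter of at least 1 CPM in at least 4 libraries (0.0468) and without knockout 2 (0.0410) or knockout 3 (0.0370); over all alternatives the adjusted p ran from 0.0167 to 0.893.

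Gclm (chr3:122245487-122267215) was not called. It stood at 64.7, 87.4, 78.9 and 95.8 CPM in the 4 heterozygous libraries, against 78.8, 77.5, 71.0 and 71.0 CPM in the 4 knockout libraries. All 4 knockout values lay inside the heterozygous range. Single exons share up to 244 bases with Gm6061 on the same strand and up to 296 bases with Gm17494 on the opposite strand, neither of which has a row in the count table, and reads there cannot be assigned with certainty. The log2 fold change was -0.13 ± 0.15 (edgeR adjusted p = 0.631), with an interval from -0.47 to 0.20. The difference between the changes of Gclc and Gclm was not tested.

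Gsr (chr8:33653238-33698162) encodes glutathione reductase, which returns oxidised glutathione to its reduced form with NADPH. Its level varied little, at 90.3, 91.3, 88.9 and 88.7 CPM in the 4 heterozygous libraries, against 86.1, 93.6, 97.5 and 87.7 CPM in the 4 knockout libraries. The log2 fold change of 0.02 ± 0.12 had an interval from -0.24 to 0.29, and its sign turned with library size alone (-0.10) or upper quartile factors (-0.051) as the scaling.

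Txnrd1, the cytosolic thioredoxin reductase, Prdx1, a peroxiredoxin that destroys hydrogen peroxide, and Srxn1, the sulfiredoxin that repairs over-oxidised peroxiredoxins, form a second reducing chain. Prdx1 (chr4:116685599-116700000) stood at 1192, 1438, 1059 and 1648 CPM in the 4 heterozygous libraries, against 1143, 1789, 1392 and 1054 CPM in the 4 knockout libraries. These ranges were nearly the same, and the log2 fold change of 0.01 ± 0.20 (interval -0.43 to 0.45) changed sign in 11 of 21 alternatives. Prdx1 has near-identical copies elsewhere in the genome, and how reads that map to several places were counted is not stated in the labels.

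Txnrd1 (chr10:82833951-82897724) stood at 150, 152, 154 and 97.7 CPM in the 4 heterozygous libraries, against 136, 104, 99.5 and 177 CPM in the 4 knockout libraries. Heterozygous 4 was far below the other 3 heterozygous libraries, which agreed closely, and the knockout libraries spread around the same level. The log2 fold change was -0.10 ± 0.22 (edgeR adjusted p = 0.813; interval -0.58 to 0.38), -0.23 without heterozygous 4 and -0.29 without knockout 4, and 0.015 without knockout 3. Srxn1 (chr2:152105524-152111376) was at 14.6, 23.4, 14.3 and 19.98 CPM in heterozygous libraries. In knockout libraries it varied more, at 26.7, 6.97, 10.8 and 20.4 CPM, so that knockout 1 was above and knockout 2 and 3 were below every heterozygous library. Its log2 fold change was -0.15 ± 0.39 (edgeR adjusted p = 0.845; interval -1.01 to 0.71) and turned to 0.10 without knockout 2 and 0.012 without knockout 3.

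G6pdx and Me1 encode NADPH-producing enzymes, glucose-6-phosphate dehydrogenase, the entry to the pentose phosphate pathway, and cytosolic malic enzyme. Me1 (chr9:86581363-86695914) stood at 13.4, 4.89, 7.73 and 9.16 CPM in the 4 heterozygous libraries, against 3.78, 1.39, 1.71 and 4.24 CPM in the 4 knockout libraries. Every knockout library lay below every heterozygous one, though knockout 4 and heterozygous 2 were close. The log2 fold change of -1.65 ± 0.50 missed the threshold (edgeR adjusted p = 0.0652; interval -2.75 to -0.54); DESeq2 called it (adjusted p = 0.0126), and over all alternatives the adjusted p ran from 0.0126 to 0.905. Me1 was highest in heterozygous 1, the library with the highest sum of neuron markers (1718 CPM), and heterozygous 2 was lowest of its group in both. Among knockout libraries Me1 was instead highest in knockout 4, which had the lowest neuron sum (86.7 CPM). In knockout 3, with the highest knockout neuron sum (255 CPM), Me1 was at 1.71 CPM. Its log2 change was -1.37 without heterozygous 1, -1.16 with the neuronal score and -1.43 with the score of all other cells as covariates. The part of neurons in the Me1 level was not tested otherwise. Single exons of Me1 overlap up to 30 bases of the opposite-strand gene A330041J22Rik, whose highest count was 2.

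G6pdx (chrX:74409483-74428880) stood at 123, 57.9, 73.6 and 81.5 CPM in the 4 heterozygous libraries, against 73.2, 55.5, 65.1 and 77.7 CPM in the 4 knockout libraries. Heterozygous 1 alone was well above the rest, and the other 7 libraries spanned 1 range. Its log2 fold change was -0.31 ± 0.22 (edgeR adjusted p = 0.424; interval -0.80 to 0.19), -0.07 without heterozygous 1, and 0.15 with the neuronal score as a covariate. G6pdx is X-linked, and heterozygous 2 and knockout 1 had 0 and 1 counts of Xist, the RNA of the inactive X, against 229 to 1135 in the other 6 libraries. The Y-linked gene Ddx3y had 331 and 914 counts in heterozygous 2 and knockout 1. It had 28 in heterozygous 3, 56 in heterozygous 4, 6 in knockout 4 and 0 in the rest. Without heterozygous 2 and knockout 1, the log2 fold change of G6pdx was -0.48 (edgeR adjusted p = 0.340). Single exons share up to 278 bases with Ikbkg on the opposite strand (at most 657 counts), and reads there cannot be assigned if strand was not used.

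Nqo1 (chr8:107388225-107403205), a quinone reductase often used as the readout of NRF2 activity, was low and the most variable member. Heterozygous libraries 1 to 4 held 63, 10, 169 and 311 counts, or 5.98, 1.06, 7.21 and 17.3 CPM. Knockout libraries held 36, 0, 46 and 145 counts, or 1.84, 0, 2.62 and 4.18 CPM; the 0 allows up to 0.261 CPM (3 counts, counting error only). Heterozygous 4 was far the highest, and heterozygous 2 lay among the knockout libraries. The log2 fold change was -1.85 ± 1.001 (edgeR adjusted p = 0.277), with a wide interval from -4.05 to 0.36, and -1.13 without heterozygous 4.

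Among 10404 tested genes averaging at least 5 CPM, those whose log2 CPM profile over the 8 libraries was closest to that of Nqo1 were Dusp14, Col8a2, Rsph9, Dcaf12l1 and Ndrg2, with root-mean-square differences of 0.67, 0.67, 0.76, 0.77 and 0.89. All 5 were lowest in knockout 2, as Nqo1 was, and highest in heterozygous 4, and none was called. These shared extremes follow from the way the 5 genes were picked. Of the other members, Me1 ranked 137th of these genes (1.44), and the other 8 ranked between 894 and 8670. Knockout 2 was the lowest library for 4 of the 10 members and knockout 1 the highest for 3.

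Osgin1 (chr8:119425882-119446257), a growth-inhibiting protein induced by oxidative stress and also known as a p53 target, stood at 8.74, 10.1, 15.7 and 9.71 CPM in the 4 heterozygous libraries, against 44.4, 13.2, 27.0 and 29.5 CPM in the 4 knockout libraries. Of the knockout libraries 3 lay above all heterozygous ones, and knockout 2 fell below heterozygous 3. The mean level went from 11.1 ± 3.15 to 28.5 ± 12.8 CPM (SD, n = 4 per group), and the log2 fold change was 1.36 ± 0.35 (edgeR adjusted p = 0.0373; interval 0.58 to 2.14). The direction held in all 21 alternatives (1.03 to 1.97), but the call did not: it was lost in 6 of the 8 leave-one-out fits, without heterozygous 1, 2 or 4 or knockout 1, 3 or 4 (adjusted p 0.0511 to 0.112). It was also lost with library size alone (0.0508), limma voom (0.0527), the replicate number as a block (0.0737), without both libraries with almost no Xist (0.207) and once the neuronal score entered as covariate (0.160). The log2 change was 1.82 in that fit and 1.97 with the score of all other cells (adjusted p = 0.696), larger than without a covariate.

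**Figure D2:**
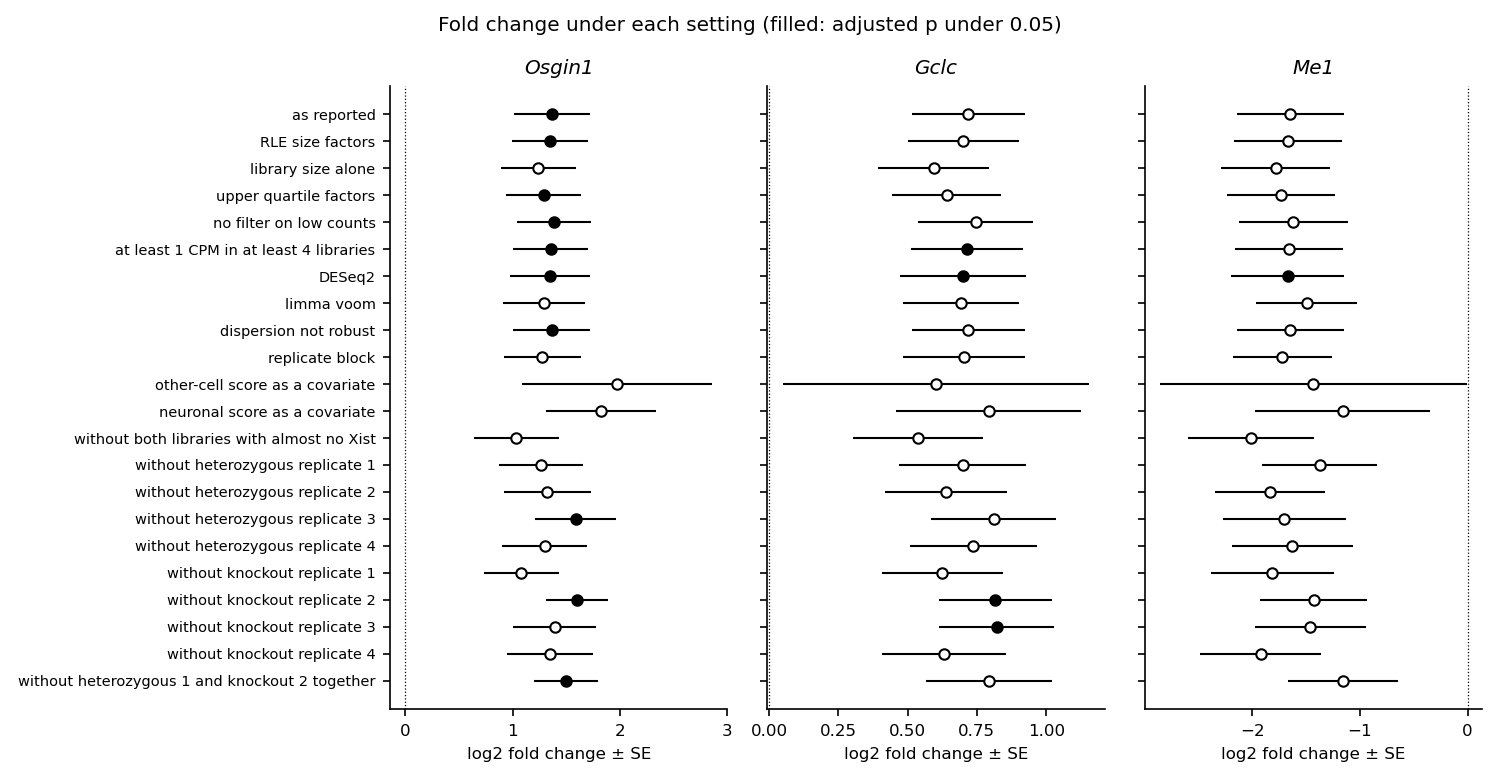
Log2 fold change, knockout minus heterozygous (x axis, point with SE), of Osgin1, Gclc and Me1 under each setting (y axis); filled points have an adjusted p under 0.05. Direction is constant for the 3 genes, whereas Osgin1 is called in 9 of the 21 alternatives, Gclc in 4 and Me1 in 1.

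The regulators of the pathway were next compared with their targets. Across all tested genes, 5.53% were called higher and 4.02% lower. Of 13 genes for NRF2, its partners and its degraders 1 rose and 0 fell (edgeR; 1 was lower at an unadjusted p under 0.05, and DESeq2 and limma voom called 0 lower), with a median log2 fold change of -0.01. Maff, a small MAF protein, rose 1.97-fold from 11.9, 12.1, 10.7 and 17.5 to 29.4, 30.1, 23.6 and 19.6 CPM, with an edgeR adjusted p of 0.0334, without overlap; 5 of the 8 leave-one-out fits lost the call (up to 0.0947). Nfe2l2 itself stood at 85.5, 118, 92.4 and 99.0 CPM in the 4 heterozygous libraries, against 133, 124, 132 and 161 CPM in the 4 knockout libraries. Its groups did not overlap, but the log2 fold change of 0.48 ± 0.15 was not called (edgeR adjusted p = 0.0702, DESeq2 adjusted p = 0.0230). The change was 0.03 with the score of all other cells as a covariate, a fit that cannot tell genotype from other cells. Keap1 was at 72.1 ± 10.7 and 68.5 ± 25.4 CPM (log2 fold change -0.07 ± 0.25). RNA levels do not measure NRF2 protein, which KEAP1 controls by degradation.

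**Figure D3:**
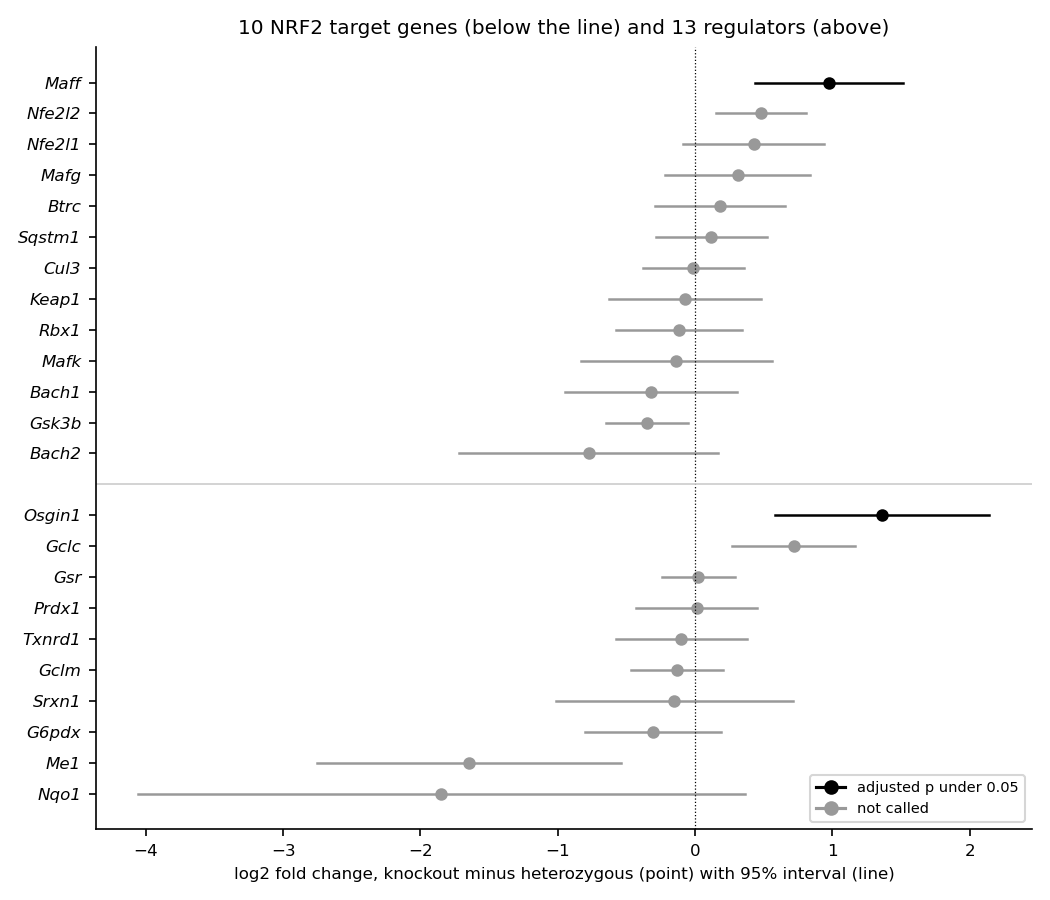
Log2 fold change, knockout minus heterozygous (x axis, point), with its 95% interval (line), for the 10 NRF2 target genes (lower block) and 13 regulators (upper block). Black marks a call at an adjusted p under 0.05, reached by Osgin1 and Maff; the intervals of 7 of the 10 targets include 0.

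Other known NRF2 targets and the enzymes that work beside the members were read from 4 further lists. Over these and the regulators, 7 of 71 tested genes rose and 4 fell (15.5% called, against 9.55% of all tested genes). The lists were chosen with earlier results of these data known, so this share is not a test of the pathway. Beside the counts of each list stand 5.53% of all tested genes called higher and 4.02% called lower. Among 22 other NRF2 targets, of which 20 were tested, 0 rose and 2 fell (edgeR; 1 was higher at an unadjusted p under 0.05, and DESeq2 and limma voom called 0 higher), with a median of -0.28. The ferritin heavy chain gene Fth1 fell 1.71-fold from 3678, 4149, 4072 and 6577 to 2716, 3020, 3010 and 2050 CPM, with an edgeR adjusted p of 0.0411, a call kept in 1 of 8 leave-one-out fits. Catalase, Cat, fell 1.66-fold from 364 ± 77.4 to 219 ± 24.8 CPM, with an edgeR adjusted p of 0.0256 (kept in 3 of 8). Hmox1, the heme oxygenase gene that is a classic NRF2 target, was at 249, 357, 189 and 353 CPM in the 4 heterozygous libraries, against 195, 159, 289 and 87.9 CPM in the 4 knockout libraries, and was not called (log2 fold change -0.65 ± 0.33; edgeR adjusted p = 0.236); the change was 0.46 with the score of all other cells as a covariate. Macrophages and red cell precursors express Hmox1. The sums for 10 microglia markers overlapped, at 528 to 1528 CPM in heterozygous and 136 to 890 CPM in knockout libraries. Those for 8 erythroid markers did not, at 237 to 611 and 19.3 to 52.0 CPM. Their part in the Hmox1 level was not tested.

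Of 14 other glutathione genes 3 rose and 0 fell (edgeR; 2 were lower at an unadjusted p under 0.05, and DESeq2 called 2 and limma voom 1 lower). Gss, glutathione synthetase, completes the tripeptide that Gclc and Gclm begin, and it rose 1.87-fold from 34.8, 41.4, 32.9 and 45.9 to 69.2, 64.7, 78.1 and 77.2 CPM, with an edgeR adjusted p of 0.00777. Chac1, which breaks glutathione down and is a target of the stress factor ATF4, rose 8.90-fold from 3.88 ± 1.41 to 34.3 ± 21.1 CPM, with an edgeR adjusted p of 0.00297. The groups of both genes did not overlap and both were called in all 8 leave-one-out fits. Gpx8, a peroxidase of the endoplasmic reticulum, rose 1.85-fold (edgeR adjusted p = 0.0494), with overlap and with the call kept in 2 of those 8 fits.

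Among 13 other genes of the thioredoxin, peroxiredoxin and superoxide dismutase families 3 rose and 1 fell. Txnrd2, the mitochondrial thioredoxin reductase, rose 2.23-fold from 28.2, 24.2, 20.4 and 12.2 to 46.8, 49.9, 45.0 and 47.5 CPM, with an edgeR adjusted p of 0.0153, and Txn2, the mitochondrial thioredoxin, rose 1.38-fold from 277 ± 15.9 to 382 ± 17.4 CPM, with an edgeR adjusted p of 0.0333. Txnrd2 was called in all 8 leave-one-out fits and Txn2 in 2. Prdx3, a mitochondrial peroxiredoxin of the same list, was also chosen after its values were seen. It was at 141 ± 18.1 and 155 ± 28.8 CPM and was not called (log2 fold change 0.14 ± 0.17, edgeR adjusted p = 0.658). The cytosolic thioredoxin gene Txn1, partner of Txnrd1 and chosen after its values were seen, was at 307 ± 62.6 and 385 ± 127 CPM and was not called (edgeR adjusted p = 0.400). Txnip, which binds and inhibits thioredoxin, fell 3.67-fold from 173, 194, 138 and 148 to 28.3, 58.3, 53.4 and 37.9 CPM, with an edgeR adjusted p of 0.00168 and was called in all 8 of those fits. Sesn2, a sestrin induced by p53 and ATF4 as well as by NRF2, rose 2.94-fold from 20.4 ± 2.15 to 60.0 ± 31.9 CPM, with an edgeR adjusted p of 0.0198 (kept in 5 of 8).

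Of 11 other NADPH-producing enzymes 0 rose and 1 fell (edgeR; 2 were higher at an unadjusted p under 0.05, and DESeq2 called 1 and limma voom 0 higher). Idh1, cytosolic isocitrate dehydrogenase, fell 1.99-fold from 301, 196, 182 and 153 to 107, 87.8, 130 and 93.5 CPM, with an edgeR adjusted p of 0.0198, without overlap; the call was kept in 6 of 8 leave-one-out fits, and the log2 change was 0.05 with the score of all other cells as a covariate. Every one of these 11 pathway calls was lost in that fit. It called 0 genes of the whole table (edgeR, 968 at an unadjusted p under 0.05). That score separates the groups completely, so the lost calls cannot tell genotype from other cells.

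**Figure D4:**
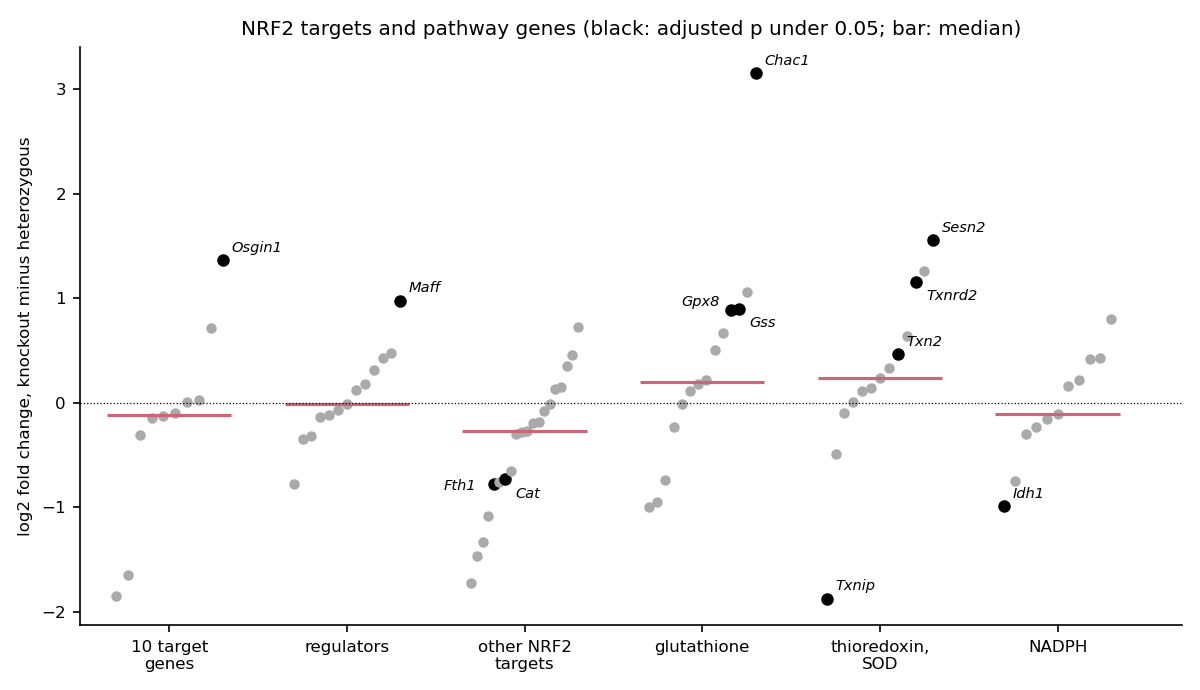
Log2 fold change, knockout minus heterozygous (y axis), of each tested gene in the 10 NRF2 targets and the 5 pathway lists (x axis), black and named where the adjusted p was under 0.05; red bars are list medians. The median of the target genes lies at -0.12 and list medians run from -0.28 for other NRF2 targets to 0.24 for the thioredoxin list, with called genes on both sides of 0.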

How the data were processed

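The deposited table holds the authors' raw counts by gene symbol, 1 column per library, unpooled. Per the submitters' processing notes, TopHat2 version 0.7, Cufflinks version 2.2.1 and build mm10 were used; the counting program, its strand setting and its annotation are not stated there. cDNA was made from sorted cells with SMART-Seq v4 and libraries with Nextera XT, per the labels' protocols.

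From these counts, in R 4.3.3, genes were filtered with filterByExpr (minimum count 10, minimum total 15), leaving 13540 of 24421 genes and 99.9% of the counts. Knockout and heterozygous libraries were compared with edgeR 4.0.16: TMM scaling, robust quasi-likelihood fit, no covariate, Benjamini-Hochberg adjustment over all tested genes. SE is the log2 change divided by the root of F, and the 95% interval uses the fit's degrees of freedom. The other-cell score averages mean log2 CPM (prior count 2) over the neuron, radial glia, pericyte, microglia and erythroid lists; the neuronal score uses the neuron and radial glia lists.

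The named genes are the 10 members, Nfe2l2, Keap1, Hmox1, up to 4 called genes of each pathway list by smallest p (or the 2 most abundant), and the 5 profiles closest to Nqo1. The members come from a list of names that uses no measured value, but members and lists were chosen with earlier results of these data known. Alternatives were other scalings, filters, DESeq2 1.42.0, limma 3.58.1 (voom), non-robust dispersion, a replicate block, both scores as covariates and left-out libraries. Within each group, every pair of libraries differed beyond sampling noise (smallest chi-square divided by its degrees of freedom, 27.6). Coordinates are from the RefSeq gene table of GRCm38.p6, the build of mm10.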

Additional observations from a re-analysis of the deposited data

Results flagged for a closer look

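In the heterozygous group, Txnrd1 in library 4 (97.7 CPM) stood apart from the other 3 libraries, whose lowest value was 150 CPM: the gap took 0.930 of the group's range, above the 95% limit for 4 values. By the same measure Fth1, the ferritin heavy chain gene, was high in heterozygous 4, at 6577 CPM against 4149 CPM in the next library (0.837 of the range). Both values come from 1 library, in opposite directions. These are 2 of 58 groups of 4 libraries examined, and chance marks about 1 group in 20.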

How the results depend on the processing

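The count of NRF2 targets higher in knockout, 1 as reported, was 2 with DESeq2 and with at least 1 CPM in at least 4 libraries (Osgin1 and Gclc), and 0 with library size alone, limma voom, the replicate block, either covariate score, and without both libraries with almost no Xist; over the fits that left out 1 library it ran from 0 to 2. The count lower was 1 with DESeq2 (Me1) and 0 elsewhere. Pathway genes called, 11 as reported, were 19 with DESeq2, 7 with the replicate block, 0 with the other-cell score, 1 with the neuronal score (Txnip), 2 without both libraries with almost no Xist (Chac1 and Txnip) and 4 to 10 over the left-out libraries, with 4 without knockout 1, 6 without heterozygous 2 or knockout 4 and 7 without heterozygous 3. All genes called, 1293 as reported, were 2229 with DESeq2, 0 with the other-cell score (edgeR; 968 at an unadjusted p under 0.05), 101 with the neuronal score, 300 without both libraries with almost no Xist, 842 without heterozygous 1 and knockout 2 together (chosen after seeing the data) and 579 to 1347 over the left-out libraries, where leaving out heterozygous 1 gave 787, heterozygous 3 gave 790, knockout 1 gave 579 and knockout 4 gave 625. With library size alone, 42.6% of called genes were higher, against 57.9%, and the median log2 change of all genes was -0.15, against -0.03.

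Signs that turned were of genes not called, except Idh1. Prdx1 (0.01 as reported) was -0.0050 with RLE factors and with DESeq2, -0.11 with library size alone, -0.061 with upper quartile factors, -0.0058 with limma voom, and -0.25 and -0.29 with the other-cell and neuronal scores. Gsr was -0.10 with library size alone and -0.051 with upper quartile factors, and G6pdx 0.29 and 0.15 with the other-cell and neuronal scores. Without heterozygous 1 and knockout 2 together, Prdx1 was -0.21, Srxn1 0.0098, Txnrd1 0.030, G6pdx 0.019 and Keap1 0.099. Over the leave-one-out fits Prdx1 ran from -0.15 to 0.14, Srxn1 from -0.48 to 0.10, Txnrd1 from -0.29 to 0.015, Keap1 from -0.23 to 0.090 and Col8a2 from -0.84 to 0.28. Keap1 was 0.075 with the neuronal score. With the other-cell score Hmox1 was 0.46, Idh1 0.049, Dusp14 0.54, Col8a2 0.023 and Ndrg2 0.98. The cause of these shifts was not tested.

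Same-numbered libraries did not pair: the correlations of their deviations across genes were 0.06, 0.21, -0.05 and 0.02, so the replicate block rests on shared numbers only; with it 868 genes were called. Counts were few for Nqo1, at 0 to 311 per library, and for Me1, at 16 to 181. After scaling to library size, Nqo1 still ran from 1.06 to 17.3 CPM within the heterozygous group.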

Other observations

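Some genes of the pathway lists lay near the threshold and were picked here after their values were seen. Prdx6, a peroxiredoxin that also acts on phospholipids, averaged 311 ± 48.0 CPM in the heterozygous group and 484 ± 103 CPM in the knockout group (SD, n = 4; log2 fold change 0.64 ± 0.19, SE; edgeR adjusted p = 0.0542). Glrx, the cytosolic glutaredoxin gene, was at 54.8 ± 8.86 and 33.0 ± 11.2 CPM (-0.74 ± 0.25; edgeR adjusted p = 0.0868). Oplah, which returns oxoproline of the glutathione cycle to glutamate, was at 20.4 ± 6.22 and 10.2 ± 2.25 CPM (-0.9998 ± 0.30; edgeR adjusted p = 0.0625). The NRF2 target Pir was at 6.84 ± 2.55 and 2.71 ± 0.160 CPM (-1.33 ± 0.44; edgeR adjusted p = 0.0861), without overlap. Slc7a11, the cystine importer that is a target of both NRF2 and ATF4, was far from the threshold and was also picked after its values were seen. It was low, at 22 to 115 counts per library, or 3.20 ± 0.775 and 2.66 ± 1.06 CPM. Its log2 fold change of -0.27 ± 0.55 was not called (edgeR adjusted p = 0.803), with a wide interval from -1.47 to 0.94. Chac1 and Sesn2, also ATF4 targets, were called higher. The part of ATF4 in these levels was not tested.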
